A study of Mus musculus with 28 samples.

Results

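The transcription factor gene Trp53 and 9 genes that its protein p53 directly activates were described across a time course of reprogramming of mouse fibroblasts. The members were chosen by name, with earlier results of these data known, and are Trp53, Cdkn1a, Mdm2, Ccng1, Trp53inp1, Bax, Bbc3, Phlda3, Zmat3 and Eda2r. Each of the 10 names matched 1 of 50600 genes in the deposited RNA-seq table, and all 10 were among the 13230 genes tested. The cells were mouse embryonic fibroblasts (MEFs) labelled wild type, which the study took from embryos carrying the OG2 reporter, a GFP that lights up when Oct4 is switched on. Reprogramming to induced pluripotent stem cells was started with retroviruses for Oct4, Klf4 and Sox2 (OKS), in the medium iCD1. SB203580 is a small-molecule inhibitor of the p38 MAP kinases, called p38i here.

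The 28 libraries fall into 14 groups of 2. MEFs without OKS were untreated or treated with p38i. The other 12 groups carry OKS and were taken on days 1, 3, 5 and 7 in each of 3 conditions, a control named DMSO after the study's solvent, p38i given during induction (p38i), and p38i given before induction (pre-p38i). The labels call these controls only "ctr" and do not say whether the 2 libraries of a group came from separate cultures, so the spread between them may be technical. The study asked whether p53 acts as a barrier to reprogramming in fibroblasts that had become tetraploid, and whether p38i alters it, so the mRNA levels of Trp53 and its targets address the transcript side of that question.

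p53 is held at a low level in unstressed cells because Mdm2, itself a p53 target, binds it and marks it for degradation. When DNA is damaged or cells are otherwise stressed, p53 protein is stabilised and switches on genes that stop the cell cycle, repair DNA or start apoptosis, so the mRNA of its targets reports its activity more directly than the mRNA of Trp53 does. In fibroblasts, p53 and its target Cdkn1a are known for limiting growth in culture and for lowering the yield of pluripotent colonies.

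p53 binds DNA as a pair of half-sites, and the half-site is a 10-base motif known as the p53 half-site consensus, which reads the same on both strands. It was searched in the 250 bases before the gene start, in promoter windows of RefSeq (GRCm38.p6). 8 of the 10 members had at least 1 window there. These members had 11 windows, as Bbc3 and Cdkn1a had several. An exact half-site stood in 5 of the 11 windows, each of another member, and in 7.13% of all 32851 windows of that length. Cdkn1a, Mdm2 and Ccng1, the genes called most often against DMSO, were among those with a half-site. Bax had 1 as well and was called against DMSO on 0 days. Phlda3 and Eda2r, each called on 3 days of p38i, had 0 exact half-sites in their windows. Whether half-sites and calls go together was not tested. The stretches below come from the 5 windows with an exact half-site. They run 5′ to 3′ toward the gene start on the strand of the gene, without bases that lie in an annotated exon, and capitals mark the exact half-site.
Cdkn1a (chr17:29090729-29090975, + strand): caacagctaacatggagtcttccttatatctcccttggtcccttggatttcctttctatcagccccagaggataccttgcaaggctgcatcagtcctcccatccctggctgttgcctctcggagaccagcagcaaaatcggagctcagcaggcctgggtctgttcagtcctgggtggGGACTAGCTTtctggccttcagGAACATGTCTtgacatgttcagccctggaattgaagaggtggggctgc
Mdm2 (chr10:117710759-117711008, - strand): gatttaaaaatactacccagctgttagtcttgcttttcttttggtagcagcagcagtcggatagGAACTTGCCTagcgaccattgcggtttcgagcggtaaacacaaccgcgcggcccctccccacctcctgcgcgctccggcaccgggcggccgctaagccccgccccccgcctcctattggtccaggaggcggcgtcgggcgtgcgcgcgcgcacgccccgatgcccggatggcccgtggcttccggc
Ccng1 (chr11:40755312-40755536, - strand): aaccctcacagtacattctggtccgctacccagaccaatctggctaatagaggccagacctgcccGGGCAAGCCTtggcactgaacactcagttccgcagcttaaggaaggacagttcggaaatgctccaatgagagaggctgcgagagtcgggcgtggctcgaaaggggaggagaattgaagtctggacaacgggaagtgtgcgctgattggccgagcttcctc
Bax (chr7:45466899-45467148, - strand): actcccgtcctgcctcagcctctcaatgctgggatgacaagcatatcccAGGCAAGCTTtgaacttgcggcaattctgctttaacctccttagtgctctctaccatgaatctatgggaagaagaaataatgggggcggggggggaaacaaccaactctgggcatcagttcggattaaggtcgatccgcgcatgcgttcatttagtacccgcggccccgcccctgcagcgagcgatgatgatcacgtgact
Trp53 (chr11:69580256-69580358, + strand): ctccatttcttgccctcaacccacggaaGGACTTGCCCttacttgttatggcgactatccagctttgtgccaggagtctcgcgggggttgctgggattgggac
The half-sites of Cdkn1a began 73 and 51 bases before the start that the upstream window borders. The other window of Cdkn1a (chr17:29093519-29093768) held 0 half-sites, also with 1 mismatch allowed. Those of Mdm2, Ccng1, Bax and Trp53 began 186, 185, 201 and 75 bases before their starts. With 1 mismatch allowed in each, pairs of half-sites that adjoined or stood a short gap apart were also sought. Such a pair was found in the upstream window of Cdkn1a alone among the member windows, and in 1.14% of all windows. In every search with 1 mismatch, the central bases of the half-site had to match. A match of letters is a description of the sequence and does not show that p53 was bound there in these cells.

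The deposited values are whole, total 991287 to 992537 in each library, and are read as TPM, a share of the library per transcript length, rounded down by the authors. Since TPM keeps no read number, the depth is unknown and no counting error can be given. Between 12454 and 14170 genes had a value of at least 1 in a library. As a check of the cell type, the summed value of 12 fibroblast markers was 17350 and 16543 in MEFs, 3817 and 4017 on DMSO day 7, 5214 and 5189 on p38i day 7, and 2846 and 2712 on pre-p38i day 7. The sum of 8 pluripotency markers was 0 in all 4 MEF libraries, 74 and 86 on DMSO day 7, 8 and 10 on p38i day 7, and 136 and 132 on pre-p38i day 7. The sum of 15 macrophage markers lay between 302 and 612 in the induced DMSO libraries, 222 to 315 under p38i and 113 to 242 in pre-p38i. Csf1r was at 0 in both libraries on day 3 of p38i and days 1 and 7 of pre-p38i, and Fcgr3 on days 5 and 7 of pre-p38i. Ptprc was at 0 on all 4 p38i days and on days 1 and 7 of pre-p38i. It was at most 2 in any library, though, and too low to be tested. The sum of 6 endothelial markers was 2 to 4 in the MEF libraries and 18 to 71 in the induced ones, with Emcn at 0 in both libraries of every group. Pecam1 was at most 2 and Cdh5 at most 1 in any library, and all 3 were too low to be tested. The sum thus rested mostly on Kdr, Tek and Esam. These markers move with the conditions, and their part in the differences below was not tested. In such bulk RNA, fewer cells that express a gene and less of its RNA per cell cannot be told apart.

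Differences are given on the log2(value + 1) scale with their standard error (SE), from limma fitted to all 28 libraries. A gene was called higher or lower when its Benjamini-Hochberg adjusted p-value over the 13230 genes was under 0.05. An exact permutation test of 2 libraries against 2 cannot give a p below 0.333, so the calls rest on the spread shared across genes and groups.

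Cdkn1a, Mdm2 and Ccng1 stood lower in p38i-treated than in untreated MEFs, and each member called against DMSO on a single day was lower there than in DMSO. In p38i-treated MEFs 3 of 10 members were lower and 0 higher, whereas of all genes tested 8.15% were called lower and 9.73% higher. In pre-p38i, 2 members were lower on day 1, against 6.24% of all genes lower and 5.40% higher. On day 3 of pre-p38i 5 were lower, with 6.87% of all genes lower and 13.8% higher. On day 5, 4 were lower with 11.3% of all genes lower and 14.3% higher, and on day 7, 5 were lower with 14.5% lower and 15.4% higher. In p38i, 4 members were lower on day 1, where the background was 12.6% lower and 3.47% higher. Day 3 of p38i had 5 lower members (background 16.2% lower, 5.22% higher), day 5 had 5 (18.7% lower, 7.87% higher) and day 7 had 4 (17.6% lower, 16.5% higher). At an unadjusted p under 0.05, limma gave 1 higher member on days 1, 3 and 5 of pre-p38i and on day 5 of p38i, each Trp53 or Zmat3, and 0 in the other 5 comparisons. The sum of the fibroblast markers was 12825 and 13014 in p38i-treated MEFs against 17350 and 16543 in untreated ones, and that of the macrophage markers 251 and 257 against 372 and 357, and the part of these shifts in the MEF differences was not tested. The median difference of the 10 members was negative in all 9 of these comparisons, from -0.30 on day 7 of pre-p38i to -0.04 on day 1 of pre-p38i, while the median over all genes tested lay between -0.08 and 0.07. Both inhibitor conditions were set against the same DMSO libraries, so their differences on 1 day are not independent of each other. Fitted with only the 4 libraries of a comparison, the count of called members was 1 in MEFs, 0, 1 and 2 on days 1, 3 and 7 of pre-p38i, and 1, 3, 3 and 2 on days 1, 3, 5 and 7 of p38i. On day 5 of pre-p38i the calls of Cdkn1a, Mdm2 and Ccng1 held in this fit, and that of Zmat3 was lost.

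**Figure D1:**
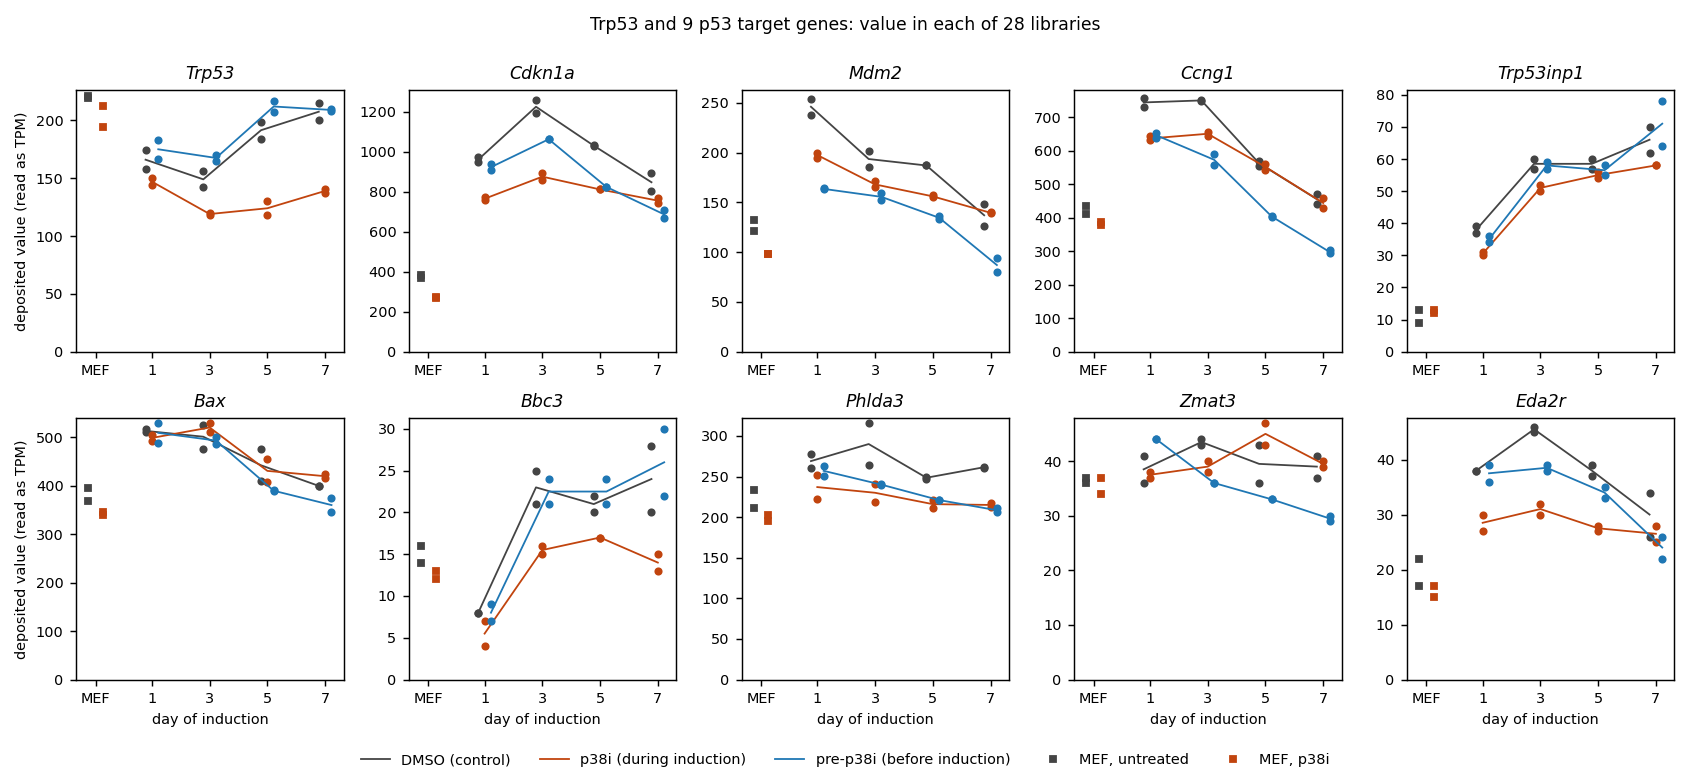
The deposited value, read as TPM, of each of the 10 genes is plotted against the day of induction, with 1 point per library and a line through the mean of the 2 libraries of each condition, and with the MEF groups as squares at the left. Cdkn1a rose from 384 and 370 in MEFs to 1258 and 1191 on DMSO day 3, and in Trp53 the p38i libraries of days 3, 5 and 7 lie between 118 and 141, below every other library of the gene.

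Averaged over days 1, 3, 5 and 7, which sets 8 libraries against 8, pre-p38i differed from DMSO in 8 members, with 7 lower and 1 higher (background 17.7% lower, 27.3% higher). Trp53 was the one higher member, by 0.10 ± 0.033 (SE, adjusted p = 0.0173), and the call was lost without DMSO replicate 2 of day 1 or day 3 or without pre-p38i replicate 2 of day 1 (highest adjusted p = 0.0543). The p38i condition differed from DMSO in 8 members as well, all lower, with 0 higher also at an unadjusted limma p under 0.05 (background 33.0% lower, 14.9% higher). Members that were lower on average in both conditions were Cdkn1a, Mdm2, Ccng1, Phlda3 and Eda2r. Trp53, Trp53inp1 and Bbc3 were lower on average in p38i, and Bax and Zmat3 in pre-p38i.

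Trp53 (ENSMUSG00000059552, GRCm38 chr11:69580359-69591873, + strand) encodes p53 itself. In the 2 MEF libraries it stood at 219 and 221. Under DMSO it was 174 and 158 on day 1, 156 and 142 on day 3, 184 and 199 on day 5, then 215 and 200 on day 7. It thus dipped from MEF to day 1, with a difference of -0.41 ± 0.066 (SE, adjusted p = 2.6e-05), and rose by 0.36 ± 0.066 between days 3 and 5 (adjusted p = 0.000644). With p38i during induction the values were 144 and 150, 118 and 120, 130 and 118, and 141 and 137 on days 1, 3, 5 and 7. Both p38i libraries lay below both DMSO libraries on each of the 4 days. The difference from DMSO was -0.17 ± 0.066 on day 1, which was not called (adjusted p = 0.0833), then -0.32 ± 0.066 (adjusted p = 0.0014), -0.62 ± 0.066 (adjusted p = 8.7e-07) and -0.57 ± 0.066 (adjusted p = 1.6e-06). In pre-p38i the libraries read 167 and 183, 170 and 165, 217 and 207, and 208 and 210. They overlapped DMSO on days 1 and 7 and lay above it on days 3 and 5, with no day called. In MEFs with p38i the values of 212 and 194 gave a difference of -0.12 ± 0.066 (adjusted p = 0.253). The calls of days 3 and 5 in p38i and of the rise between days 3 and 5 were lost when only the 4 libraries compared entered the fit (adjusted p = 0.101, 0.0569 and 0.132). The processed pseudogene Trp53-ps, 97.7% identical to Trp53 over 353 nt, was listed at 0 in every library.

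Mdm2 (ENSMUSG00000020184, chr10:117688875-117710758, - strand) encodes the ubiquitin ligase that holds p53 low, and is switched on by p53 in a feedback loop. It rose from 121 and 132 in MEFs to 254 and 238 on DMSO day 1, a difference of 0.95 ± 0.072 (adjusted p = 6.7e-10). Later DMSO values were 185 and 202 on day 3, 187 and 187 on day 5, then 126 and 148 on day 7. The level thus returned to near that of MEFs, in falls from day 1 to 3 (-0.35 ± 0.072, adjusted p = 0.000595) and from day 5 to 7 (-0.45 ± 0.072, adjusted p = 0.000113). In pre-p38i it was 163 and 164, 152 and 159, 136 and 133, and 94 and 80 on the 4 days. All 8 of these libraries lay below the DMSO libraries of their day, and each day was called, at -0.59 ± 0.072 (adjusted p = 2e-05), -0.31 ± 0.072 (adjusted p = 0.0041), -0.47 ± 0.072 (adjusted p = 6.2e-05) and -0.65 ± 0.072 (adjusted p = 1e-06). In p38i it was 200 and 195, 171 and 165, 155 and 157, and 140 and 139. These libraries lay below DMSO on days 1, 3 and 5 and within its range on day 7. The calls were on day 1 (-0.31 ± 0.072, adjusted p = 0.0047) and day 5 (-0.26 ± 0.072, adjusted p = 0.0112), and day 7 gave 0.03 ± 0.072 (adjusted p = 0.784). In MEFs, p38i went with 98 and 98 and a difference of -0.36 ± 0.072 (adjusted p = 0.00124). With only the 4 libraries compared in the fit, the calls in MEFs, on days 1, 3 and 7 of pre-p38i, on day 1 of p38i and for both falls were lost. The day 1 call in p38i was also lost without DMSO replicate 1, the day 3 call in pre-p38i without DMSO replicate 2, and the day 5 call in p38i without DMSO replicate 2 or p38i replicate 1. The highest adjusted p over these losses was 0.105.

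Cdkn1a (ENSMUSG00000023067, chr17:29090979-29100722, + strand) encodes p21, an inhibitor of cyclin-dependent kinases that carries out the p53-dependent arrest of the cell cycle. It had the highest values of the members under OKS. From 384 and 370 in MEFs it rose to 971 and 950 on DMSO day 1, by 1.35 ± 0.044 (adjusted p = 1.4e-15). It reached 1258 and 1191 on day 3, and then declined to 1027 and 1033 on day 5 and 803 and 891 on day 7. Each of these steps was called (0.35 ± 0.044, adjusted p = 2.4e-06, then -0.25 ± 0.044, adjusted p = 0.000524, and -0.28 ± 0.044, adjusted p = 9e-05). With p38i during induction Cdkn1a was 771 and 758, 859 and 891, 811 and 811, and 767 and 743. All 8 libraries lay below DMSO of their day, and all 4 days were called, with the lowest difference on day 3 (-0.48 ± 0.044, adjusted p = 1.5e-07) and the one nearest 0 on day 7 (-0.16 ± 0.044, adjusted p = 0.00726). Under pre-p38i the levels were 906 and 939, 1063 and 1061, 825 and 822, and 706 and 666. Here too all 8 libraries were below DMSO. The difference was not called on day 1 (-0.06 ± 0.044, adjusted p = 0.467) and was on days 3, 5 and 7 (-0.20, -0.32 and -0.30, each ± 0.044, adjusted p = 0.00259, 2e-05 and 3.3e-05). In MEFs, p38i went with 275 and 267, a difference of -0.47 ± 0.044 (adjusted p = 2.5e-07), which held in all 11 alternatives run. The day 3 call in pre-p38i was lost with quantile normalization (adjusted p = 0.258), as was the fall from day 3 to 5. The day 7 call in p38i was lost without DMSO replicate 2 or p38i replicate 2, and this call, those of days 3 and 7 in pre-p38i and those of both late falls were lost with only the 4 libraries compared in the fit. A gene on the other strand, AC167363.2, shares 273 exonic bases with Cdkn1a, and whether the counting used strand is not given in the sources used here.

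Ccng1 (ENSMUSG00000020326, chr11:40748552-40755311, - strand) encodes cyclin G1, which recruits a phosphatase that acts on Mdm2. It went from 435 and 412 in MEFs to 757 and 730 on DMSO day 1, a rise of 0.81 ± 0.043 (adjusted p = 2.7e-12). It held at 747 and 752 on day 3 and then declined to 555 and 569 on day 5 and 441 and 469 on day 7. Both declines were called (-0.41 ± 0.043, adjusted p = 1.4e-06, and -0.30 ± 0.043, adjusted p = 3e-05), the second of them only with the other groups in the fit (adjusted p = 0.056 without). In pre-p38i the values were 653 and 638, 589 and 556, 404 and 402, and 302 and 293. All of them were below DMSO, and the difference went from -0.20 ± 0.043 on day 1 (adjusted p = 0.00379) through -0.39 (adjusted p = 2.8e-06) and -0.48 (adjusted p = 1.2e-07) to -0.61 ± 0.043 on day 7 (adjusted p = 2.1e-09). In p38i the values were 630 and 642, 644 and 656, 543 and 559, and 428 and 459. They were below DMSO on days 1 and 3 and overlapped it on days 5 and 7. The differences were -0.22 ± 0.043 (adjusted p = 0.00105), -0.21 (adjusted p = 0.00163), -0.03 (adjusted p = 0.679) and -0.04 (adjusted p = 0.549). In MEFs with p38i, 388 and 378 gave -0.14 ± 0.043 (adjusted p = 0.0237). That call was lost with quantile normalization, with only the 4 MEF libraries in the fit, and without MEF replicate 1 or p38i-treated MEF replicate 1 or 2 (highest adjusted p = 0.206). The day 1 call in pre-p38i was lost without DMSO replicate 1, the day 3 call in p38i with quantile normalization (adjusted p = 0.0597), and those of days 1 and 3 in pre-p38i and day 1 in p38i with only the 4 libraries compared.

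**Figure D2:**
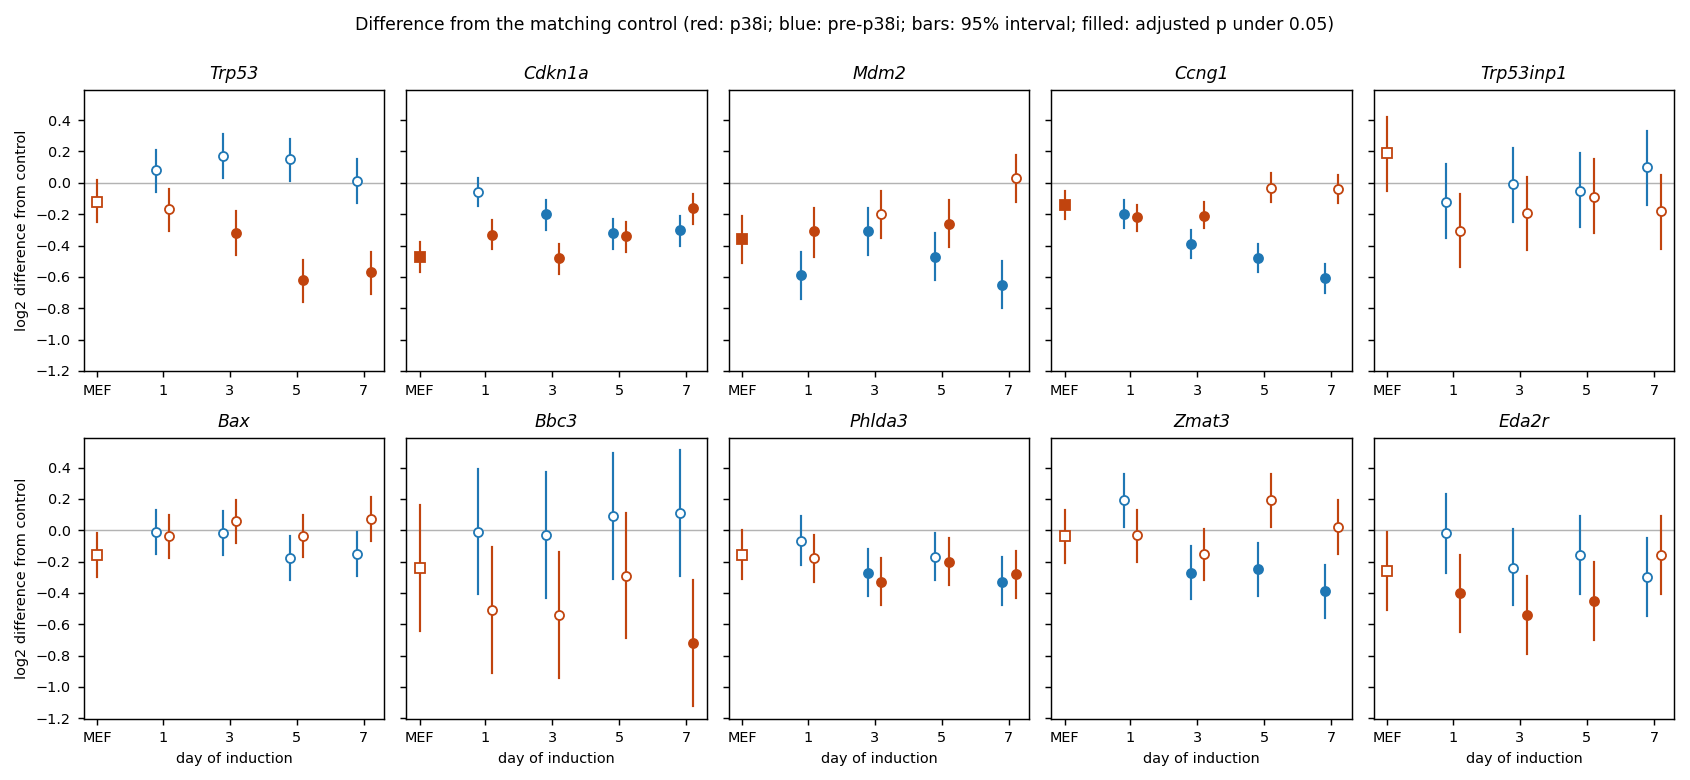
The log2 difference of each gene from its control is plotted for MEFs (square) and for days 1, 3, 5 and 7 of induction, in red for p38i and in blue for pre-p38i, with the 95% interval as a bar and filled symbols for adjusted p under 0.05. Ccng1 in pre-p38i went from -0.20 on day 1 to -0.61 on day 7 while in p38i it went from -0.22 to -0.04, and Trp53 in p38i went from -0.17 to -0.57.

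Bax (ENSMUSG00000003873, chr7:45461697-45466898, - strand) encodes a protein that opens the outer membrane of mitochondria in apoptosis. It was 368 and 396 in MEFs and 516 and 510 on DMSO day 1, a rise of 0.43 ± 0.066 (adjusted p = 1.6e-05), and then 476 and 526, 475 and 409, and 400 and 399 on days 3, 5 and 7. No later step was called. In p38i it stayed between 407 and 529, and in pre-p38i it went from 530 and 488 on day 1 to 346 and 374 on day 7. No day of either condition was called against DMSO. The nearest were -0.18 ± 0.066 on day 5 of pre-p38i (adjusted p = 0.0547) and -0.15 ± 0.066 on day 7 (adjusted p = 0.0941), where both libraries lay below both of DMSO. The average over the 4 days of pre-p38i, -0.09 ± 0.033 (adjusted p = 0.0316), was called in 12 of the 23 alternatives. The protein-coding gene Gm45808 shares 192 exonic bases with Bax on the same strand and was listed at 0 or 1 in each library, so reads of the shared bases could have been split.

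Bbc3 (ENSMUSG00000002083, chr7:16308393-16318205, + strand) encodes Puma, a protein that binds and blocks the survival factors of the Bcl-2 family. It had the lowest values of the members, between 4 and 30, so rounding to whole numbers weighs more on it than on the others. It went from 14 and 16 in MEFs to 8 and 8 on DMSO day 1, a difference of -0.83 ± 0.19 (adjusted p = 0.00105). By day 3 it had risen to 25 and 21 (1.41 ± 0.19, adjusted p = 5.7e-06), and days 5 and 7 held 20 and 22 and then 20 and 28. In p38i it was 7 and 4, 15 and 16, 17 and 17, and 13 and 15. These libraries lay below DMSO on all 4 days, and day 7 alone was called (-0.72 ± 0.19, adjusted p = 0.00637). Days 1, 3 and 5 gave -0.51, -0.54 and -0.29, each ± 0.19 (adjusted p = 0.0802, 0.0524 and 0.297). The day 7 call was lost without DMSO replicate 2 or p38i replicate 1 and with only the 4 libraries compared (highest adjusted p = 0.129), while the average over the 4 days, -0.51 ± 0.10 (adjusted p = 0.000193), was called in all 23 alternatives. The pre-p38i values were 9 and 7, 24 and 21, 21 and 24, and 30 and 22, which overlapped DMSO on each day.

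Trp53inp1 (ENSMUSG00000028211, chr4:11156431-11174379, + strand) encodes a protein of the nucleus and of autophagosomes that promotes p53-dependent cell death. It had the largest rise of the members on induction, from 9 and 13 in MEFs to 39 and 37 on DMSO day 1 (1.72 ± 0.11, adjusted p = 7.6e-11). It rose again to 57 and 60 on day 3 (0.61 ± 0.11, adjusted p = 0.000183), stayed at 57 and 60 on day 5 and was 62 and 70 on day 7. In p38i it was 31 and 30, 50 and 52, 54 and 56, and 58 and 58. All 8 values lay below DMSO of their day without a call on any day, and the differences were -0.31, -0.19, -0.09 and -0.18, each ± 0.11 (adjusted p = 0.07, 0.243, 0.621 and 0.235). The average over the 4 days, -0.19 ± 0.056 (adjusted p = 0.00815), was called, but not with quantile normalization (adjusted p = 0.0724). The values in pre-p38i were 36 and 34, 59 and 57, 58 and 55, and 78 and 64, with no call and overlap with DMSO on days 3, 5 and 7.

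Eda2r (ENSMUSG00000034457, chrX:97333840-97377216, - strand) encodes a receptor of the TNF receptor family for ectodysplasin A2. From 17 and 22 in MEFs it rose to 38 and 38 on DMSO day 1 (0.94 ± 0.12, adjusted p = 1.2e-06) and was 45 and 46 on day 3, 39 and 37 on day 5, then 26 and 34 on day 7. The last step was called (-0.34 ± 0.12, adjusted p = 0.0395) but was lost in 7 of 11 alternatives, those without DMSO replicate 1 or 2 of day 5 or replicate 1 of day 7 among them. In p38i it was 30 and 27, 30 and 32, 28 and 27, and 28 and 25. It lay below DMSO on days 1, 3 and 5, which were called at -0.40 ± 0.12 (adjusted p = 0.0248), -0.54 ± 0.12 (adjusted p = 0.0026) and -0.45 ± 0.12 (adjusted p = 0.00819), and overlapped it on day 7. The day 3 call held in all 11 alternatives. That of day 1 was lost without DMSO replicate 1 or 2 or p38i replicate 2, with a replicate block, with quantile normalization and with only the 4 libraries compared (highest adjusted p = 0.183), and that of day 5 without DMSO replicate 1 or p38i replicate 2 (highest adjusted p = 0.0581). In pre-p38i it was 36 and 39, 38 and 39, 35 and 33, and 26 and 22, and no day was called. The average over the 4 days of pre-p38i was called (-0.18 ± 0.06, adjusted p = 0.0198) except without DMSO replicate 2 or pre-p38i replicate 2 of day 7.

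Phlda3 (ENSMUSG00000041801, chr1:135766119-135769136, + strand) encodes a small protein that keeps the kinase Akt from the membrane and so opposes survival signals. It was 233 and 211 in MEFs, 278 and 260 on DMSO day 1, 316 and 264 on day 3, 247 and 250 on day 5, then 262 and 261 on day 7. The rise on induction was 0.28 ± 0.072 (adjusted p = 0.0028), a small one beside those of Cdkn1a and Mdm2. It was lost without MEF replicate 2 and with only the 4 libraries compared (adjusted p up to 0.0844). In p38i the values were 222 and 252, 241 and 219, 211 and 221, and 217 and 213. They lay below DMSO on every day and were called on day 3 (-0.33 ± 0.072, adjusted p = 0.00243), day 5 (-0.20 ± 0.072, adjusted p = 0.0448) and day 7 (-0.28 ± 0.072, adjusted p = 0.00493). The day 7 call held in all 11 alternatives, that of day 3 was lost without DMSO replicate 1 and with only the 4 libraries compared, and that of day 5 was lost in 8 alternatives, including the omission of any of its 4 libraries. In pre-p38i it was 251 and 263, 239 and 241, 221 and 221, and 206 and 211. It was below DMSO from day 3 on and was called on day 3 (-0.27 ± 0.072, adjusted p = 0.0124) and day 7 (-0.33 ± 0.072, adjusted p = 0.00192). The day 3 call was lost without DMSO replicate 1 or pre-p38i replicate 1 or 2 and with only the 4 libraries compared (highest adjusted p = 0.255), and that of day 7 held in all 11 alternatives.

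Zmat3 (ENSMUSG00000027663, chr3:32334792-32366014, - strand) encodes a zinc finger protein that binds RNA and affects splicing and mRNA stability. It was the member with the smallest change on induction, with 37 and 36 in MEFs and values between 36 and 44 in all 8 induced DMSO libraries, and no step was called. In p38i it lay between 37 and 47, and no day was called against DMSO. In pre-p38i it was 44 and 44 on day 1, 36 and 36 on day 3, 33 and 33 on day 5, then 30 and 29 on day 7. It was thus above both DMSO libraries on day 1 and below both on the later days. The differences were 0.19 ± 0.081 (adjusted p = 0.147), -0.27 (adjusted p = 0.0241), -0.25 (adjusted p = 0.0299) and -0.39 ± 0.081 (adjusted p = 0.00109). The day 3 call was lost without any of its 4 libraries, that of day 5 without DMSO replicate 2 or either pre-p38i library, with a replicate block and with only the 4 libraries compared, and that of day 7 with only the 4 libraries compared (highest adjusted p = 0.118, 0.373 and 0.0627).

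Across the 14 groups, the highest group mean was 1.46 to 6.45 times the lowest, from Phlda3 to Trp53inp1. Cdkn1a ran from a mean of 271 in p38i-treated MEFs to 1224.5 on DMSO day 3, and its 2 libraries did not overlap those of the next group in 10 of the 13 neighbouring pairs of its order. Mdm2 ran from 87.0 on pre-p38i day 7 to 246 on DMSO day 1, with 8 such pairs, and Ccng1 from 297.5 on pre-p38i day 7 to 749.5 on DMSO day 3, with 6. Trp53 ran from 119 on p38i day 3 to 220 in untreated MEFs, a ratio of 1.85, and 5 of its 13 neighbouring pairs did not overlap. The 4 p38i groups held the lowest 4 places of Trp53. Bax, Bbc3, Phlda3, Zmat3 and Eda2r had 3 or 4 separate pairs and Trp53inp1 had 6, and the other neighbours in their orders overlapped. The share of such pairs over all genes was not computed. As 2 libraries can lie apart from 2 others without a difference between the groups, these counts only describe the orders.

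The steps of the DMSO course give the members' pattern over induction without inhibitor. In the first step, OKS, infection with retrovirus, the change of medium to iCD1 and time differ together and cannot be told apart. From MEF to day 1, 7 members rose and 2 fell, where 36.6% of all genes rose and 18.9% fell. The median of the 10 members in this step was 0.62 and that of all genes 0.14. The members that rose were Cdkn1a, Mdm2, Ccng1, Trp53inp1, Bax, Phlda3 and Eda2r, and Trp53 and Bbc3 fell. From day 1 to 3, Cdkn1a, Trp53inp1 and Bbc3 rose and Mdm2 fell (background 20.5% higher, 24.0% lower), so Cdkn1a and Mdm2 moved in opposite directions. From day 3 to 5, Trp53 rose and Cdkn1a, Ccng1 and Phlda3 fell (background 13.8% higher, 5.57% lower). The Phlda3 fall (-0.22 ± 0.072, adjusted p = 0.0413) was lost in 5 of 11 alternatives, among them those without DMSO replicate 1 of day 3 or either library of day 5. From day 5 to 7, Cdkn1a, Mdm2, Ccng1 and Eda2r fell and no member rose (background 16.4% lower, 10.3% higher), also at an unadjusted limma p under 0.05. With only the 4 libraries compared, 1 of the 4 calls of the day 3 to 5 step and 0 of the 4 of the last step remained past the threshold.

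**Figure D3:**
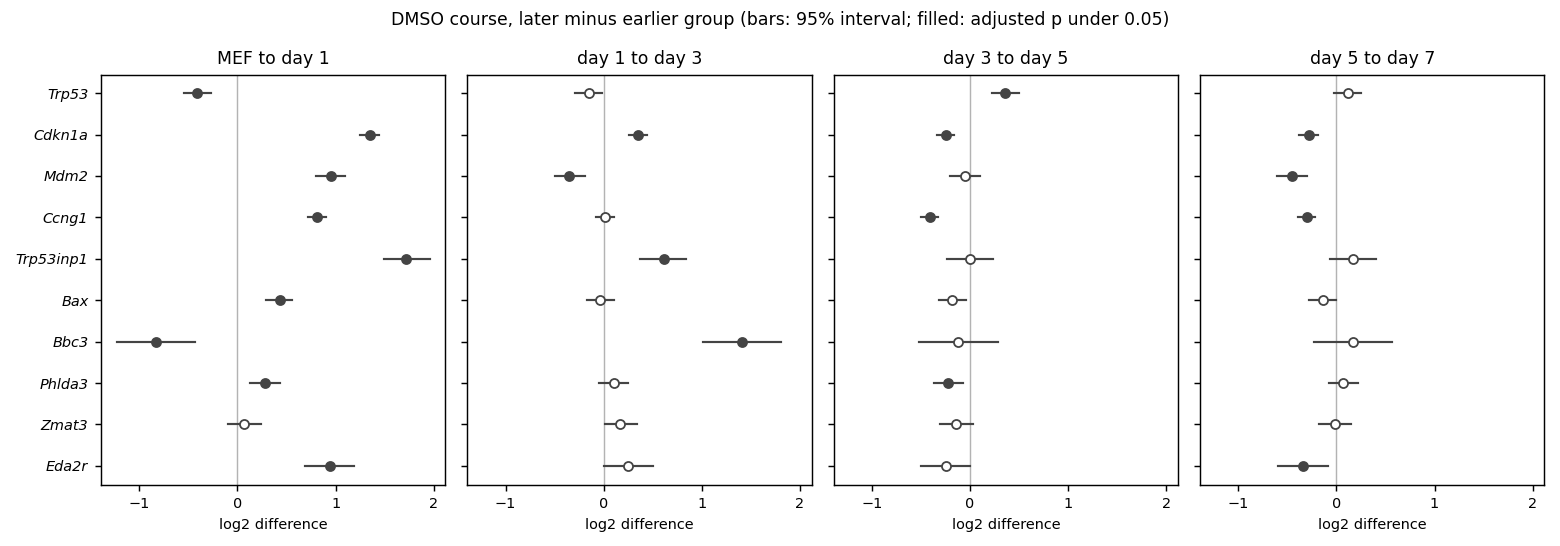
The log2 difference between successive DMSO groups, later minus earlier, is plotted for each gene in 4 panels, with the 95% interval as a bar and filled points for adjusted p under 0.05. The first step from MEF to day 1 spans -0.83 for Bbc3 to 1.72 for Trp53inp1, and later steps lie between -0.45 and 1.41.

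The 2 ways of giving the inhibitor were then set against each other on the same day (p38i minus pre-p38i), which uses no DMSO library. Trp53 was lower in p38i on all 4 days, at -0.25 (adjusted p = 0.00749), -0.49 (adjusted p = 6.7e-06), -0.77 (adjusted p = 1.4e-08) and -0.59 (adjusted p = 3.5e-07), each ± 0.066. The 2 p38i libraries lay below the 2 of pre-p38i on each day. The day 1 call was lost without p38i replicate 1 or pre-p38i replicate 2 and with only the 4 libraries compared (highest adjusted p = 0.123), and those of days 3, 5 and 7 held in all 11 alternatives. Mdm2 was higher in p38i on day 1 (0.27 ± 0.072, adjusted p = 0.00771), day 5 (0.21 ± 0.072, adjusted p = 0.0203) and day 7 (0.68 ± 0.072, adjusted p = 1.5e-07), of which the first was lost without p38i replicate 1 and the second without any of its 4 libraries. Ccng1 differed by -0.02 ± 0.043 on day 1 (95% interval -0.11 to 0.07, not called) and was higher in p38i on day 3 (0.18, adjusted p = 0.00188, lost with only the 4 libraries compared), day 5 (0.45, adjusted p = 6e-08) and day 7 (0.57, adjusted p = 1.1e-09). On day 7, Trp53 thus stood at 141 and 137 in p38i against 208 and 210 in pre-p38i, while Mdm2 stood at 140 and 139 against 94 and 80 and Ccng1 at 428 and 459 against 302 and 293. Cdkn1a turned, from lower in p38i on days 1 and 3 (-0.27 and -0.28, each ± 0.044, adjusted p = 0.000115 and 4.6e-05) to higher on day 7 (0.14 ± 0.044, adjusted p = 0.0126). The day 7 call was lost with quantile normalization, with only the 4 libraries compared, and without p38i replicate 1 or pre-p38i replicate 2 (highest adjusted p = 0.148).

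In the same comparison Zmat3 was lower in p38i on day 1 (-0.23 ± 0.081, adjusted p = 0.0433), a call lost without any of the 4 libraries, with a replicate block and with quantile normalization, and higher on day 5 (0.43 ± 0.081, adjusted p = 0.000191) and day 7 (0.41 ± 0.081, adjusted p = 0.000264). Bbc3 was lower in p38i on day 3 (-0.51 ± 0.19, adjusted p = 0.0392) and on day 7 (-0.84 ± 0.19, adjusted p = 0.00107), the first of which was lost in 8 of 11 alternatives and the second with only the 4 libraries compared. Eda2r was lower on days 1, 3 and 5, with calls near the threshold on days 3 and 5 (adjusted p = 0.0468 and 0.048) that were lost in 8 of 11 alternatives each, and on day 1 (-0.38 ± 0.12, adjusted p = 0.0202) a call that was lost without replicate 2 of either condition, with quantile normalization and with only the 4 libraries compared (highest adjusted p = 0.154). Bax was higher on day 7 (0.22 ± 0.066, adjusted p = 0.0082), lost without p38i replicate 2 or pre-p38i replicate 1 and with only the 4 libraries compared, and Trp53inp1 lower (-0.28 ± 0.11, adjusted p = 0.0414), lost in 8 of 11 alternatives. Phlda3 was not called on any day. In counts, p38i had 1 member higher and 4 lower than pre-p38i on day 1 (background 8.25% higher, 19.9% lower) and again on day 3 (10.7% higher, 31.4% lower). It had 3 higher and 2 lower on day 5 (16.3% higher, 31.1% lower), and 5 higher and 3 lower on day 7 (24.8% higher, 29.5% lower).

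**Figure D4:**
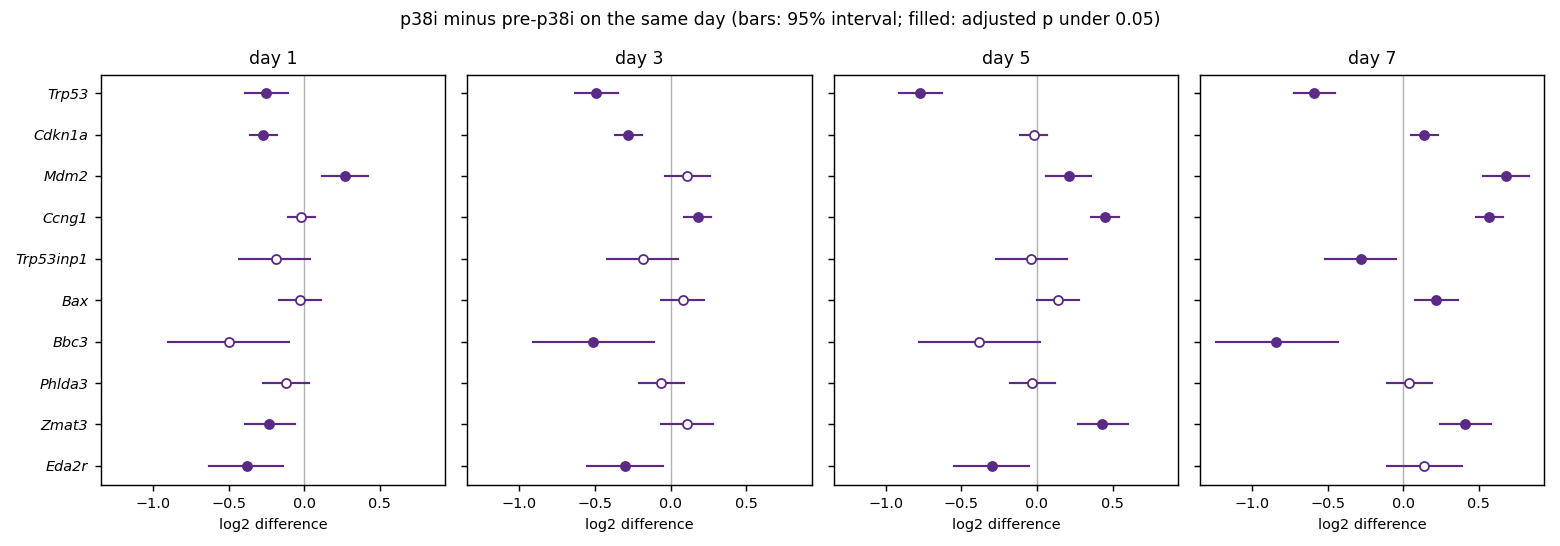
The log2 difference between p38i and pre-p38i on the same day is plotted for each gene in 4 panels, with the 95% interval as a bar and filled points for adjusted p under 0.05. Trp53 is left of 0 on all 4 days, and on day 7 Mdm2 (0.68), Ccng1 (0.57) and Zmat3 (0.41) are right of it.

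Whether the difference from DMSO itself changed between day 1 and day 7 was tested as a contrast of the same model. In pre-p38i it moved down for 3 members and up for 0, also at an unadjusted limma p under 0.05 (background 9.43% lower, 7.25% higher), for Ccng1 by -0.41 ± 0.06 (adjusted p = 8.6e-05), for Zmat3 by -0.58 ± 0.11 (adjusted p = 0.00138) and for Cdkn1a by -0.24 ± 0.063 (adjusted p = 0.0106). In p38i it moved down for Trp53 (-0.40 ± 0.093, adjusted p = 0.00425) and up for Mdm2 (0.35 ± 0.10, adjusted p = 0.0197) and Ccng1 (0.19 ± 0.06, adjusted p = 0.032), against a background of 7.55% lower and 14.1% higher. The changes of Ccng1 and Zmat3 in pre-p38i and of Trp53 in p38i held in all 15 alternatives. That of Cdkn1a was lost without DMSO replicate 2 or pre-p38i replicate 2 of day 7, that of Mdm2 in 5 alternatives and that of Ccng1 in p38i in 7, and each of these losses included the fit with only the groups of the contrast.

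Other genes of the pathway were taken from 6 lists with 76 genes, of which 75 were in the table and 73 were tested, 17 of them regulators of p53 and 56 further targets. The lists were chosen with earlier results of these data known. Their counts beside the shares of all genes are thus a description and not an independent test. On induction, from MEF to DMSO day 1, 37 of the 56 targets rose and 7 fell, beside 36.6% and 18.9% of all genes, with a median of 0.50 beside 0.14 for all genes. Perp, a membrane protein of p53-dependent apoptosis, had the largest rise, from 17 and 14 to 251 and 243 (3.92 ± 0.08, adjusted p = 3.1e-19), and Ier5, an immediate early gene, the largest fall, from 123 and 130 to 22 and 23 (-2.44 ± 0.11, adjusted p = 1.4e-13). In p38i-treated MEFs 14 targets were lower and 6 higher than in untreated ones, beside 8.15% and 9.73% of all genes, so the 6 higher ones were near the background. Sfn, which encodes the arrest protein 14-3-3 sigma, went from 16 and 17 to 5 and 3 (-1.84 ± 0.16, adjusted p = 9.9e-08), and Pltp, a phospholipid transfer protein, from 6 and 5 to 15 and 12 (1.15 ± 0.11, adjusted p = 2.1e-07).

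In pre-p38i the 56 targets gave 7 lower and 1 higher on day 1, 14 and 4 on day 3, 19 and 5 on day 5, then 19 and 8 on day 7. Of all genes, 6.24%, 6.87%, 11.3% and 14.5% were lower and 5.40%, 13.8%, 14.3% and 15.4% higher on these days, so the 8 higher targets of day 7 were near the background. Pmaip1, which encodes the apoptotic protein Noxa, had the largest fall on day 1, with 14 and 13 against 38 and 34 (-1.35 ± 0.11, adjusted p = 7.4e-08), and on day 3, with 12 and 12 against 25 and 23 (-0.94 ± 0.11, adjusted p = 3.4e-06). The falls that led on days 5 and 7 were in low genes, Trp53i11 with 6 and 7 against 12 and 15 and the arrest gene Rprm with 2 and 2 against 5 and 6. Among rises over all 73 genes, the checkpoint kinase gene Chek1 led on day 1 (10 and 13 against 8 and 7) and day 5 (18 and 20 against 9 and 10), the apoptotic gene Bid on day 3 (52 and 55 against 38 and 37) and Ddit4, an inhibitor of mTOR signalling, on day 7 (237 and 228 against 135 and 124, 0.84 ± 0.08, adjusted p = 2.6e-07).

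In p38i the targets gave 18 lower and 2 higher on day 1, 19 and 2 on day 3, 14 and 3 on day 5, then 13 and 8 on day 7. The shares of all genes on these days were 12.6%, 16.2%, 18.7% and 17.6% lower and 3.47%, 5.22%, 7.87% and 16.5% higher. The counts of days 5 and 7, and the higher ones of days 1 and 3, were thus near them. Ptprv, a phosphatase gene linked to p53-dependent arrest, had the largest fall on day 1, with 20 and 20 against 59 and 69 (-1.63 ± 0.21, adjusted p = 2.4e-05). Trp63, the p53 relative among the regulators, led on day 3, where it was listed at 0 and 0 against 3 and 5, and on day 5, with 3 and 2 against 10 and 11 (-1.73 ± 0.22, adjusted p = 8.3e-06). Ddb2, a DNA repair gene, led on day 7 with 1 and 1 against 4 and 3. The leading rises were Bid on day 1 (46 and 44 against 34 and 33), the mitochondrial gene Sco2 on day 3 (34 and 28 against 25 and 17), Aldh4a1, an enzyme of proline breakdown, on day 5 (41 and 38 against 26 and 27) and the decoy receptor gene Tnfrsf23 on day 7 (36 and 36 against 20 and 24). Over the 4 days on average, 34 of the 56 targets were lower and 4 higher in p38i, where 33.0% of all genes were lower and 14.9% higher. By list, lower genes in p38i numbered 7 of 11 for arrest, 10 of 12 for apoptosis, 3 of 8 for DNA repair, 5 of 10 for metabolism and 9 of 15 for other reported targets. In pre-p38i the average was lower for 24 targets and higher for 7, beside 17.7% and 27.3% of all genes. Lower genes there numbered 4 of 11 for arrest, 7 of 12 for apoptosis, 2 of 8 for DNA repair, 7 of 10 for metabolism and 4 of 15 for other reported targets. Of the 17 regulators, 6 were lower and 1 higher in p38i, and 2 lower and 6 higher in pre-p38i, so the 6 lower ones in p38i and the 6 higher ones in pre-p38i were near the shares of all genes.

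**Figure D5:**
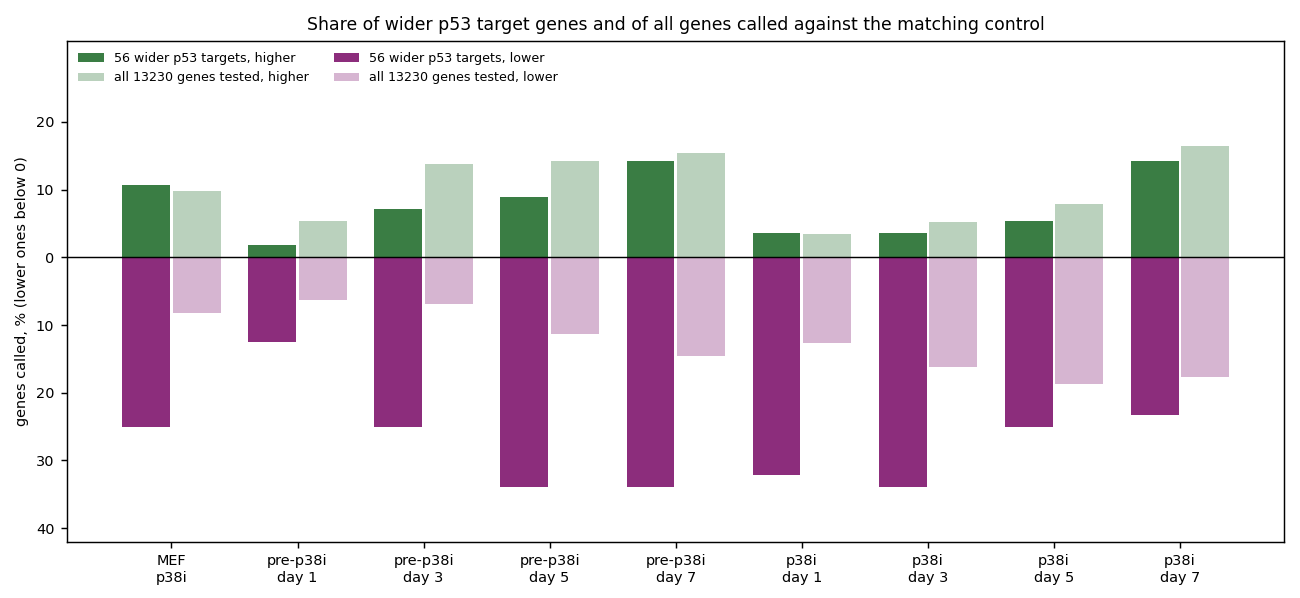
The percentage of 56 further p53 targets called against the matching control is plotted in full colour for 9 comparisons, beside the percentage of all 13230 genes tested in pale colour, with genes called higher above 0 and lower below it. Lower targets numbered 14 in MEFs, 7 to 19 in pre-p38i and 13 to 19 in p38i.

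Genes whose pattern over the 28 libraries was most like that of Trp53 or Cdkn1a were looked for among 10667 genes with a mean of at least 5, by Pearson's r of log2(value + 1). For Trp53 they were Cnbp (r = 0.949), Dnajc2 (0.944), Rbmxl1 (0.936), G3bp1 (0.927) and Kars (0.927), and for Cdkn1a they were Def6 (r = 0.984), Hey2 (0.982), Cd80 (0.968), Pdgfa (0.968) and Slc26a2 (0.968). Def6 is also on the list of other reported p53 targets. Among the members themselves, Trp53 had r of -0.406 with Cdkn1a, -0.497 with Mdm2, -0.597 with Ccng1, -0.64 with Bax, -0.523 with Zmat3, -0.282 with Eda2r, -0.083 with Phlda3 and 0.249 with Bbc3. With Trp53inp1 it had r of -0.298, while Spearman's rho was 0.021. Cdkn1a had r of 0.931 with Eda2r, 0.696 with Bax, 0.661 with Phlda3, 0.649 with Mdm2, 0.607 with Ccng1, 0.357 with Zmat3 and 0.161 with Bbc3. Its r with Trp53inp1 was 0.817, where Spearman's rho was 0.328. The 28 libraries are 14 groups of 2 that share treatments and days, so these coefficients describe how the levels of the groups run together and carry no p.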

How the data were processed

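RNA-seq of 28 libraries was analysed. The authors deposited 1 score per gene and library, whole numbers that were read as TPM rounded down from their totals. The submitters' processing notes list Bowtie2 2.2.5 and RSEM 1.3.0, without roles. The differential test of the study is not given in the sources used here. The library kit and the RNA extraction differ between the labels and the paper.

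Groups and replicate numbers came from the sample labels. Values were taken as log2(value + 1). Genes entered the fit if their mean over the libraries was 1 or more, which 13230 did. A linear model with 1 mean for each of the 14 groups was fitted by limma 3.58.1 (lmFit, then eBayes with its trend option; R 4.3.3), and p-values were adjusted by Benjamini-Hochberg over all of them. The scripts were tested on simulated data. The deposited scores keep no depth. The precision rests on the spread between the 2 libraries of a group, pooled over the 14 groups and moderated across genes. The members and gene lists were chosen with earlier results of these data known.

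The list genes named are those with the largest called rise and fall in each comparison, and the 5 genes most correlated with Trp53 or Cdkn1a. Near-identical transcripts were sought with BLAST 2.17.0+, and plots were drawn with matplotlib 3.10.9. Alternatives were leaving out each library, a fit of the compared groups alone, a replicate block, quantile normalization, a pseudocount of 0.1, the middle of the rounding step, no filter, and a minimum mean of 5. Within a time point, correlations of the deviations of same-numbered libraries lay between -0.0159 and 0.0513, so no shift shared by number was seen. Whether the numbers pair cultures is not known, and pairing across days was not examined.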

Additional observations from a re-analysis of the deposited data

Results flagged for a closer look

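For 6 values the difference from DMSO was not the same on day 1 and day 7 by a limma test of the change itself. Of 10 members, 3 moved down in pre-p38i, beside 9.43% of all genes down and 7.25% up. For p38i, 1 moved down and 2 up, beside 7.55% and 14.1%, so the p38i counts were near the shares of all genes. The calls of Cdkn1a in pre-p38i and of Mdm2 and Ccng1 in p38i were lost in 3, 5 and 7 of 15 alternatives. In pre-p38i the change was -0.24 for Cdkn1a (adjusted p = 0.0106), from -0.06 on day 1 to -0.30 on day 7. It was -0.41 for Ccng1 (adjusted p = 8.6e-05), from -0.20 to -0.61, and -0.58 for Zmat3 (adjusted p = 0.00138), from 0.19 to -0.39, and both pre-p38i libraries of Zmat3 were above DMSO on day 1 and below it on day 7. In p38i the change was -0.40 for Trp53 (adjusted p = 0.00425), from -0.17 to -0.57, while it was 0.35 for Mdm2 (adjusted p = 0.0197), from -0.31 to 0.03, and 0.19 for Ccng1 (adjusted p = 0.032), from -0.22 to -0.04. The sum of 12 fibroblast markers was 10462 and 10099 on DMSO day 1 against 9001 and 9137 in p38i and 7740 and 8274 in pre-p38i, and 3817 and 4017 on DMSO day 7 against 5214 and 5189 and 2846 and 2712, and its part in these changes was not tested. Groups of 2 libraries were not screened for single libraries that stand apart.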

How the results depend on the processing

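Of 103 member calls over 21 comparisons, 49 held in every alternative and 54 were lost in at least 1, and no called value changed sign. Fitted with only the groups compared, which leaves few libraries for the spread, the number of called members was 1 in place of 3 in MEFs, 0, 1 and 2 in place of 2, 5 and 5 on days 1, 3 and 7 of pre-p38i, and 1, 3, 3 and 2 in place of 4, 5, 5 and 4 on days 1, 3, 5 and 7 of p38i. On day 5 of pre-p38i this fit kept the calls of Cdkn1a, Mdm2 and Ccng1 and lost that of Zmat3. At an unadjusted limma p under 0.05 the day 1 comparison of pre-p38i then had 2. Between p38i and pre-p38i it was 3, 3 and 4 in place of 5, 5 and 8 on days 1, 3 and 7. For the DMSO steps it was 1 in place of 4 from day 3 to 5 and 0 in place of 4 from day 5 to 7, the latter with 4 at an unadjusted p under 0.05, and for the change of p38i between days 1 and 7 it was 1 in place of 3. Between p38i and pre-p38i, quantile normalization gave 3 on day 1, and a pseudocount of 0.1 or no filter gave 3 on day 3, in place of 5 each, where the cause was not tested. Leaving out 1 library gave 1 to 2 members on day 1 of pre-p38i and 3 in each case on day 3, 2 to 5 on day 1, 3 to 4 on day 5 and 2 to 4 on day 7 of p38i, 2 to 4, 3 in each case and 3 to 4 on days 1, 3 and 5 between p38i and pre-p38i, and 1 to 4 for the change in p38i. Of 210 member values, quantile normalization ended 17 calls and made 10, and turned the sign of 13 values that neither fit called, the pseudocount of 0.1 ended 5 and no filter 7, the middle of the rounding step made 1, and a mean of at least 5 made 3. The replicate block within time points ended 7 calls and made 0, among them that of Eda2r on day 1 of p38i, and changed no count of calls by over 1.5 times. Omitting a library ended 96 and made 20 of 1160, and turned the sign of 62 uncalled values. With 1 mismatch, 7 members in place of 5 had a half-site, as did 34.4% of all promoter windows in place of 7.13%. Marker lists by their median in place of their sum moved by more than the library spread in 56 of 68 differences, and 8 turned sign. Whole-number rounding limits Bbc3, whose values are 4 to 30, most, and depth is unknown.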

Other observations

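Cdkn2a and Gadd45a, singled out after their values were seen, differed from DMSO in opposite directions in the inhibitor conditions. Cdkn2a, whose locus encodes the Mdm2 inhibitor Arf and the arrest protein Ink4a, rose from 90 and 97 in MEFs to 213 and 213 on DMSO day 1 (1.18 ± 0.06, SE, limma adjusted p = 3.1e-12). Averaged over the 4 days it was lower in pre-p38i than in DMSO (-0.54 ± 0.03, adjusted p = 7.2e-11) and higher in p38i (0.22 ± 0.03, adjusted p = 1.3e-05). On day 1, however, both conditions lay below DMSO, p38i without a call (198 and 193, -0.12 ± 0.06, adjusted p = 0.209) and pre-p38i with 1 (-0.45 ± 0.06, adjusted p = 9.5e-05). In MEFs, p38i also went with lower values of Cdkn2a, 70 and 76 (-0.35 ± 0.06, adjusted p = 0.000498). On day 7 its libraries read 272 and 295 in DMSO, 374 and 402 in p38i, and 201 and 213 in pre-p38i. The 3 groups did not overlap. Gadd45a, an arrest and DNA damage gene, was 89 and 96 in DMSO, 142 and 152 in p38i, and 62 and 51 in pre-p38i on that day. Its averages over the 4 days were -0.53 ± 0.04 (adjusted p = 5e-09) in pre-p38i and 0.40 ± 0.04 (adjusted p = 2e-07) in p38i. The table gives 1 value for Cdkn2a, so its transcripts for Arf and Ink4a cannot be told apart.

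Mdm4, a p53 inhibitor related to Mdm2 and also singled out after its values were seen, gave averages of 0.29 ± 0.09 (adjusted p = 0.0144) in pre-p38i and -0.37 ± 0.09 (adjusted p = 0.00308) in p38i. Mdm2 itself was lower than DMSO on average in both (-0.50 ± 0.036 and -0.19 ± 0.036, adjusted p = 1.1e-09 and 0.000267).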
